A study of Mus musculus with 2 samples.

Results

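The Hox genes, with the genes of their Meis and Pbx partner proteins, were followed in cells of old and of young C57BL/6J mice that the labels give as vascular cells flow-sorted from the lung. The members were all genes whose probe sets carried a single symbol of the form Hoxa, Hoxb, Hoxc or Hoxd with a number, or Meis or Pbx with a number, a rule that names genes by symbol and uses no measured value, although the family was taken up with earlier results of these data known. They came to 39 of the 18193 genes named on the array, 33 Hox genes and 6 Meis and Pbx genes, and were read by 63 of 45037 non-control probe sets. Other genes of these families were not analysed here.

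The samples were 1 array of old and 1 array of young mice, both of the same strain, both after removal of the left lung lobe, with vascular cells taken from the right lobes that remained. Exact ages, sort markers, the interval since surgery and how many mice were pooled are not stated in the labels, and unoperated mice were not analysed here. With 1 array per age there is no replicate check and no test, and age cannot be told apart from anything else that differs between the 2 arrays. The tissue of each array is known from the labels alone. On the old array 10 of 10 liver sinusoidal endothelial markers and 9 of 9 hepatocyte markers above a floor of 73.7 signal units were at least 2-fold higher than on the young one, among them albumin, Alb, with 8900 in old and 20.5 in young mice. Of 10 lung capillary genes 7 were above the floor, among them Gpihbp1 with 32563 in old and 911 in young mice and Ednrb with 1280 in old and 11300 in young mice, while Car4 was below it on both arrays. Of 10 lung epithelial genes 6 were above the floor, while Sftpc and Nkx2-1 were below it on both arrays. Every Hox value below is therefore a difference between these RNA samples as labelled, and how far tissue composition enters it was not tested. In bulk RNA of this kind, fewer cells of a type and less RNA per cell cannot be told apart either.

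Hox genes encode homeodomain transcription factors that lie in 4 clusters, and their order along a cluster matches the order in which they are used along the body axis, the anterior genes carrying low numbers and the posterior ones high numbers. Adult cells, endothelial cells and fibroblasts among them, keep much of the Hox pattern of the place where they arose, so that Hox expression is often read as a record of position. Meis and Pbx proteins are homeodomain proteins of the TALE class that bind DNA together with Hox proteins. In the mouse, Hoxa5 is needed for normal formation of the trachea and lung, and Hoxb5 takes part in the branching of the lung.

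Values are MAS5 signals in signal units, scaled so that the median log2 ratio between the arrays was 0, and log2 ratios are old minus young. The floor of 73.7 signal units, the median of the probe sets, separated measured values from low ones, and values below it have no order. Where only 1 array reached the floor, the other was set to it, which makes the fold a lower bound. Differences of 2-fold or more are described as higher, and probe sets that read the same gene differed in log2 ratio with an SD of 0.42, which is a spread of probes and not of mice.

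Of 6 HoxA genes above the floor, 3 were so on both arrays, 1 in old mice only and 2 in young mice only. All 5 HoxB genes above the floor were so on both arrays. Of 8 HoxD genes, 4 reached the floor, in young mice only. The HoxD genes Hoxd3, Hoxd8, Hoxd9 and Hoxd10 were above the floor on the young array and below it on the old. The HoxA genes Hoxa2, Hoxa3, Hoxa4 and Hoxa5 and the HoxB genes Hoxb2, Hoxb4 and Hoxb5 were higher in old mice. Hoxa7, also of HoxA, was higher in young mice. Of 12 pan-endothelial genes, 12 were above the floor on both arrays, but 5 were higher in old and 1 in young mice (median log2 ratio 0.59). Among them, Robo4 was 9.12-fold and Tek 5.91-fold higher in old mice, and Emcn 2.17-fold higher in young mice.

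In counts, 9 of the 33 Hox genes were above the floor in old and 15 in young mice, where 62.9% and 58.6% of all genes were. On at least 1 array 16 Hox genes were above the floor, as were 66.5% of all genes. Of these 16, 7 were higher in old mice and 5 in young mice, and 4 did not reach 2-fold, of which Hoxa9 and Hoxc6 have only a lower bound. Of the 12105 genes of the array that met the same condition, 16.0% were higher in old and 11.3% in young mice, and 72.7% did not reach 2-fold, lower bounds included. The median log2 ratio of the 16 was 0.10, against 0.03 over those 12105 genes, since the Hox genes lay on both sides. The 8 Hox genes above the floor on both arrays held 6 that were higher in old and 0 in young mice, where 11.7% and 10.6% of all genes above the floor on both were. The remaining 8 were above the floor on 1 array only. Out of all 33 Hox genes these were 1 in old and 7 in young mice. Out of all 18193 genes, those below the floor on both arrays included, the shares were 7.95% and 3.60%. Genes had to differ to be seen on only 1 array, so their number is a description.

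**Figure D1:**
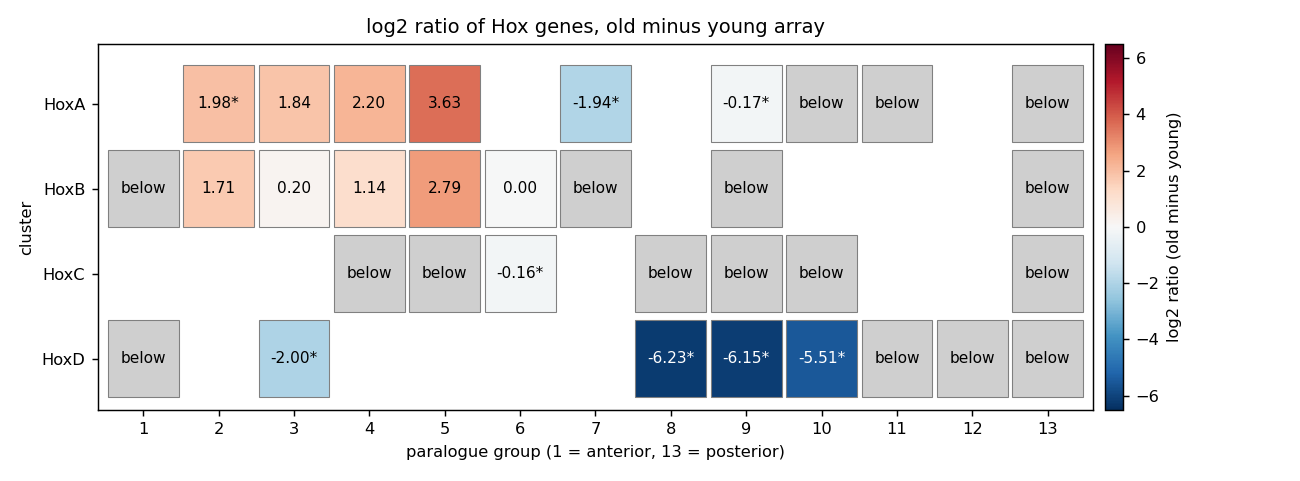
Log2 ratio (old minus young) of each analysed Hox gene, with clusters in rows and paralogue groups from anterior to posterior in columns. An asterisk marks a lower bound against the floor, "below" marks a gene under the floor on both arrays, and only analysed genes are drawn. Orange cells fill HoxA and HoxB groups 2 to 5, with Hoxb3 near 0, and the deepest blue cells are Hoxd8, Hoxd9 and Hoxd10.

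Hoxd8, Hoxd9 and Hoxd10 showed the largest differences of the 16 Hox genes above the floor. Hoxd8, a gene of the middle of the cluster, had a signal of 38.4 in old and 5539 in young mice, at least 75.2-fold higher in young mice. Its other probe set, of the kind that can match several transcripts, had 46.6 in old and 2547 in young mice. Both probe sets thus lay below the floor on the old array and far above it on the young. In the mouse, Hoxd8 has been described as a target of Prox1, the transcription factor of lymphatic identity, in endothelial cells made from embryonic stem cells.

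Hoxd9, which takes part in patterning the lumbar spine, had a signal of 6.91 in old and 5223 in young mice, at least 70.9-fold higher in young mice. Hoxd10, its neighbour with a role in the hindlimb, had 2.24 in old and 3348 in young mice, at least 45.4-fold higher in young mice. In human cells HOXD10 has been studied in blood vessel endothelium, where it holds back migration, and in lymphatic endothelium. Differences of 32-fold or more toward the young array were found for 0.207% of the 12105 genes, and Hoxd8, Hoxd9 and Hoxd10 were 3 of the 25 genes concerned. At 8-fold the share toward the young array was 1.33%, and the same 3 were the Hox genes shown to be past it. Hoxd3 and Hoxa7 have only bounds under 8-fold, and with the floor at the 25 percentile they too were past it (log2 ratios of -3.69 and -3.80).

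Hoxd3, an anterior member, had 22.9 in old and 296 in young mice, at least 4.01-fold higher in young mice. In human endothelial cells HOXD3 is known to favour invasion and integrin expression. A pair of probe sets that the annotation assigns to both Hoxd4 and Hoxd3, and which count for no gene here, lay on the same side. Their signals were 60.2 and 3.04 on the old array and 467 and 648 on the young.

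The signal did not extend to the ends of the HoxD cluster. Hoxd1 at the anterior end and Hoxd11, Hoxd12 and Hoxd13 at the posterior end, the last of which shapes digits and the urogenital tract, were below the floor on both arrays. Among the noncoding genes of the clusters, Hoxd3os1, transcribed from the opposite strand beside Hoxd3, had 6.42 in old and 647 in young mice, at least 8.77-fold higher in young mice. Outside the cluster on the same chromosome, Mtx2, a mitochondrial import gene, was 2.78-fold higher in young mice (829 in old, 2307 in young mice). On that chromosome Lnpk, which shapes the endoplasmic reticulum, and Atp5mc3, an ATP synthase subunit, were within 2-fold, with log2 ratios of 0.62 and 0.08.

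Of 18 genes flanking the 4 clusters, 14 were above the floor, 0 were higher in old mice and 2 in young mice, with a median log2 ratio of -0.0030 and a range of -1.48 to 0.62. Besides Mtx2, the gene on the young side was Snx10, an endosome sorting gene near HoxA (2.15-fold). All 14 flanking genes reached the floor on each array. Of the 10004 genes of the array that did so, 11.7% were higher in old and 10.6% in young mice. The 16 Hox genes ran more widely, from -6.23 to 3.63, but 8 of them reached the floor on 1 array only. The 8 Hox genes that reached it on each array ran from -0.0048 to 3.63. Whether the flanking genes differ from other genes of the array was not tested.

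The promoters of Hoxd8, Hoxd9 and Hoxd10 are shown with that of Hoxa5, the gene with the largest ratio toward the old array, to set the opposite sides of the comparison next to each other. Each run covers 250 bases before to 50 bases after the RefSeq start site of build GRCm38.p6, written 5′ to 3′ on the gene's strand, with capitals marking CpG dinucleotides, the sites of DNA methylation. Hoxd8 lies on the plus strand at chr2:74704365-74704664, Hoxd9 on the plus strand at chr2:74697513-74697812, Hoxd10 on the plus strand at chr2:74691641-74691940, and Hoxa5 on the minus strand at chr6:52204538-52204837.
Hoxd8: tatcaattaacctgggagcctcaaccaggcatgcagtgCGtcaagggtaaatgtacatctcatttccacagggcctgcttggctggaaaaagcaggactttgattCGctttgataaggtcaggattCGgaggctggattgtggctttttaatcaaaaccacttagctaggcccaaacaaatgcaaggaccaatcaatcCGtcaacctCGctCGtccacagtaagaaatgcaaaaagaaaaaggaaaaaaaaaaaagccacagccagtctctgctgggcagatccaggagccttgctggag
Hoxd9: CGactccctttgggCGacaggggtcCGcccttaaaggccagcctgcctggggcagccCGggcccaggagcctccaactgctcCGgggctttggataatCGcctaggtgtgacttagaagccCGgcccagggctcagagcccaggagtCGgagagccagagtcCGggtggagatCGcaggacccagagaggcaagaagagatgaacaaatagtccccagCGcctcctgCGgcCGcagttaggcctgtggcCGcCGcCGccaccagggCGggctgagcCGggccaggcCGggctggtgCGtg
Hoxd10: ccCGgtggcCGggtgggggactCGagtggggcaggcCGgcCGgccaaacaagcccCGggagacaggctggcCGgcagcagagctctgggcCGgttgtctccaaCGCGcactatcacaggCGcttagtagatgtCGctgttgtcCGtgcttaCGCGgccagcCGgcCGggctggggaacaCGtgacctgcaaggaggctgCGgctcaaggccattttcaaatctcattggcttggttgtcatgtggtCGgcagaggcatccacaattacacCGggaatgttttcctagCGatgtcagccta
Hoxa5: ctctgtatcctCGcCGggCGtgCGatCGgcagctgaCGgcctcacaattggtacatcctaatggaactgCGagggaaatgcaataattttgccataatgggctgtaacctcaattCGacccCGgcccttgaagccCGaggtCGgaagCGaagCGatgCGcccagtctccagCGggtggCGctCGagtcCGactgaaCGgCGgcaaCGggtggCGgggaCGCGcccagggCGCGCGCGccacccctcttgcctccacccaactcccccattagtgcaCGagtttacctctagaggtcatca

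The Hoxd8 window held 6 CpG dinucleotides, near the median of 7 over the 32851 RefSeq promoters, while Hoxd9 held 20, Hoxd10 held 22 and Hoxa5 held 29. Of the 39 genes, 24 matched the promoter table, with 26 start sites. The joint Pbx and Hox motif TGATNNAT, searched on both strands, was found at 3 of the 26 (Hoxa2, Hoxb1 and 1 of 2 starts of Hoxd11), against 8.85% of all promoters. The Meis motif TGACAG was found at 2 (Hoxa2 and Hoxa3), against 19.2%. AGGTCA, the core letters bound by retinoid receptors, was found at 6, against 16.3%. These were Hoxa5, Hoxb4, Hoxc4, Hoxd3, Hoxd8 and Hoxd10, which lie on both sides of the comparison or below the floor. Read on one strand or the other, all 3 motifs open with TGA and differ in the letters after it. A match is a description of the sequence only.

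The HoxA genes from Hoxa2 to Hoxa5 were all higher in old mice. Hoxa5, the lung patterning gene, had 3587 in old and 291 in young mice, 12.3-fold higher in old mice, and its other probe set had 2361 in old and 156 in young mice. A difference of 8-fold or more toward the old array was found for 3.82% of genes, and Hoxa5 was the 1 Hox gene among them at this floor. With the floor at the 25 percentile Hoxa2, at 3.03 in log2 ratio, was also past 8-fold. Hoxa4 had 424 in old and 92.5 in young mice, 4.58-fold higher in old mice, with a further probe set below the floor on both. Hoxa3, needed for the thymus and parathyroid in mice, had 412 in old and 115 in young mice, 3.58-fold higher in old mice. Of its 4 probe sets, 2 were above the floor, with log2 ratios of 1.16 and 1.84, and averaging over all 4 gave a bound of 0.37. Hoxa2, which patterns the hindbrain and the bones of the middle ear, had 290.4 in old and 35.6 in young mice, at least 3.94-fold higher in old mice. Transcripts of Hoxa3 span the positions of Hoxa4, Hoxa5 and Hoxa6 in RefSeq, so signals within this stretch may share transcripts.

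Further along HoxA the direction turned. Hoxa7, a gene of the thoracic axis, had 15.0 in old and 282 in young mice, at least 3.83-fold higher in young mice. Hoxa9, known from blood progenitors and from human endothelial cells, had 60.6 in old and 82.9 in young mice, at least 1.12-fold higher in young mice, a bound that leaves its side of 2-fold unknown. Hoxa10, Hoxa11 and Hoxa13, genes of the posterior trunk, limb and genital tract, were below the floor on both arrays.

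HoxB genes were above the floor on both arrays from Hoxb2 to Hoxb6. Hoxb5, the lung branching gene, had 1427 in old and 206 in young mice, 6.93-fold higher in old mice. Hoxb2, a hindbrain gene, had 1179 in old and 360.2 in young mice, 3.27-fold higher in old mice. Hoxb4, which expands blood stem cells when overexpressed, had 691 in old and 313 in young mice, 2.21-fold higher in old mice, but its other probe set had 173 in old and 165 in young mice. The 2 probe sets of Hoxb4 therefore gave log2 ratios of 1.14 and 0.07, and their mean, 0.60, was under 2-fold.

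Hoxb3 and Hoxb6 did not reach 2-fold. Hoxb3 had 809 in old and 705 in young mice by one probe set and 321 in old and 316 in young mice by the other. Hoxb6 had 214 in old and 214 in young mice. Hoxb1, Hoxb9, Hoxb13 and Hoxb7 by its own probe set were below the floor on both. A probe set assigned to both Hoxb8 and Hoxb7, counted for neither, had 142 in old and 1345 in young mice, a log2 ratio of -3.24, on the side of Hoxa7 rather than of Hoxb5. Hoxb5os, a noncoding gene on the strand opposite Hoxb5 and Hoxb6, had 754 in old and 65.6 in young mice, at least 10.2-fold higher in old mice.

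**Figure D2:**
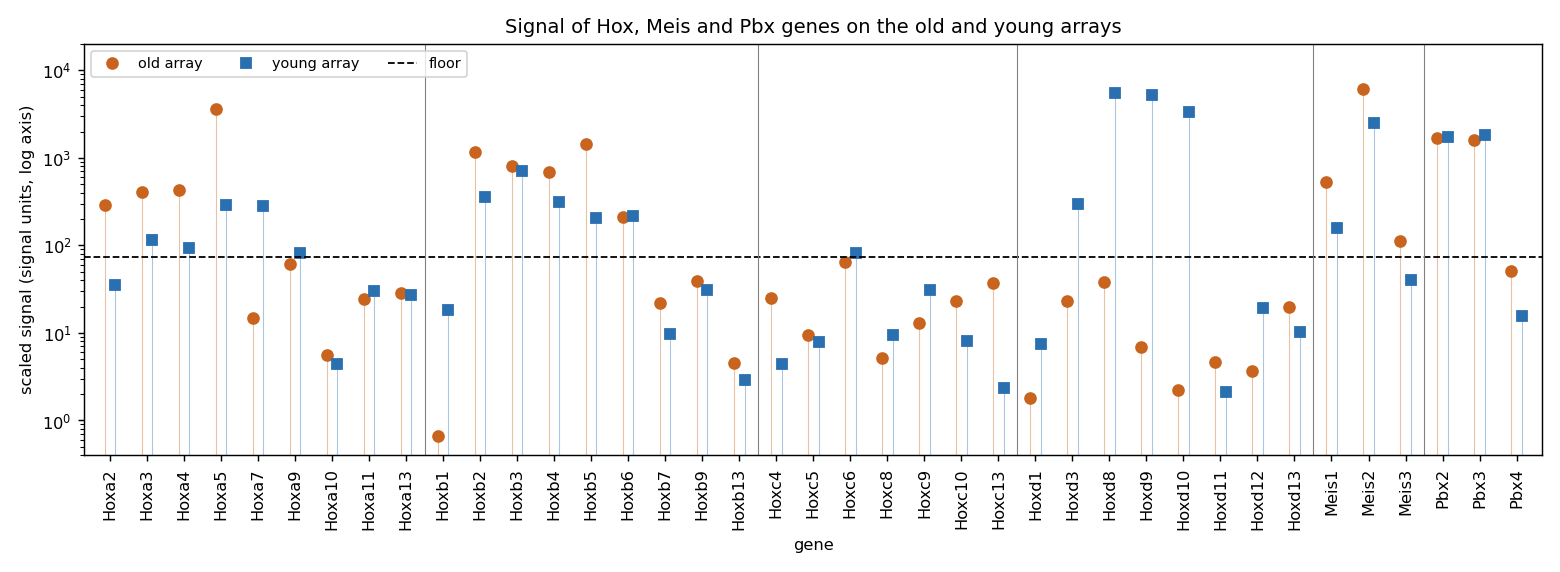
Scaled signal on a log axis for the probe set that stands for each of the 39 genes, with the old array as circles and the young array as squares, and the floor of 73.7 dashed. The circles lie above the squares from Hoxa2 to Hoxa5, while for Hoxd8, Hoxd9 and Hoxd10 the squares lie at 3348 or above and the circles below the floor. Heights of different genes are not comparable, since they come from different probes.

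The HoxC cluster gave little signal. Of 7 HoxC genes, 6 were below the floor on both arrays, namely Hoxc4, Hoxc5, Hoxc8, Hoxc9, Hoxc10 and Hoxc13. Hoxc6, a thoracic gene, had 65.4 in old and 82.6 in young mice by the probe set that stands for it. Another of its 3 probe sets had 27.7 in old and 135 in young mice, a bound of -0.87 in log2 ratio, and the third was below the floor on both.

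Read by paralogue group, clusters were called in opposite directions in group 3 only. In groups 2, 4 and 5 the HoxA and HoxB genes were both higher in old mice. In group 3, Hoxa3 was higher in old mice, Hoxb3 was within 2-fold and Hoxd3 was higher in young mice. Of 10 genes in groups 1 to 4, 7 were above the floor, 5 higher in old and 1 in young mice. Of 9 in groups 5 to 8, 6 were above the floor and 2 were higher on each array. Of 14 in groups 9 to 13, 3 were above the floor, 0 higher in old and 2 in young mice. Over all genes above the floor, 16.0% were higher in old and 11.3% in young mice.

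**Figure D3:**
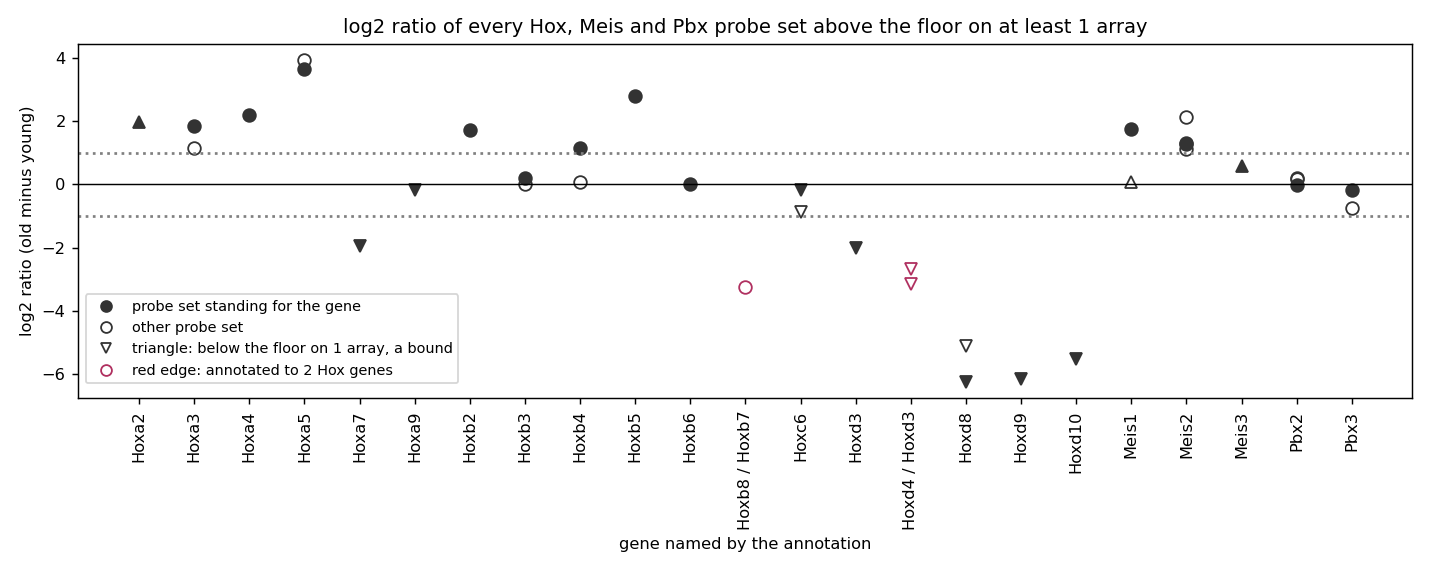
Log2 ratio (old minus young) of every probe set of the family above the floor on at least 1 array, filled for the probe set that stands for the gene and open for the others, with triangles for bounds and dotted lines at 2-fold. Probe sets of Hoxa5, Hoxd8 and Meis2 lie on 1 side of the dotted lines, while those of Hoxb4 lie on both sides of the upper one.

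Among the partner genes, Meis1 and Meis2 were higher in old mice, while Pbx2 and Pbx3 were within 2-fold. Of 6 Meis and Pbx genes, 5 were above the floor on at least 1 array, 2 were higher in old and 0 in young mice, where 16.0% and 11.3% of all genes above the floor were. Meis2 had 6144 in old and 2493 in young mice, 2.46-fold higher in old mice, and its 4 probe sets ranged from 1.11 to 2.14 in log2 ratio. Meis1, a Hox partner known from blood stem cells, had 536 in old and 158 in young mice, 3.39-fold higher in old mice. Its other probe sets were near or below the floor, and the mean over the 3 gave a bound of 0.56 in log2 ratio. Meis3 had 111 in old and 39.8 in young mice, at least 1.51-fold higher in old mice.

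Pbx2 had 1706 in old and 1745 in young mice, and its 3 probe sets lay between -0.03 and 0.21. Pbx3 had 1599 in old and 1801 in young mice, with probe sets at -0.17 and -0.76. Each of their probe sets was within 2-fold, while Pbx4 was below the floor on both arrays. Other TALE homeobox genes were above the floor for 6 of 11 members, of which 0 were higher in old and 3 in young mice (median log2 ratio -0.78). These 3 were Irx5 (3.28-fold), the TGF-beta corepressor gene Tgif2 (3.09-fold) and Irx3 (3.08-fold). Among all genes above the floor, 16.0% were higher in old and 11.3% in young mice. Pknox1, which like Meis encodes a partner of Pbx, had 864 in old and 551 in young mice.

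Retinoic acid is the classic inducer of anterior Hox genes. Of 16 measured members of its pathway 9 were above the floor and 7 below it on both arrays. Of the 9, 6 were higher in old and 0 in young mice, with a median log2 ratio of 1.50, where 16.0% and 11.3% of all genes above the floor were higher. Aldh1a1, which makes retinoic acid from retinal, had 2531 in old and 5.66 in young mice, at least 34.3-fold higher in old mice. Cyp26b1, which breaks it down, had 1724 in old and 27.4 in young mice, at least 23.4-fold higher in old mice. The receptor gene Rarb was 14.9-fold higher in old mice (1835 in old, 123 in young mice) and the retinal reductase gene Dhrs3 6.47-fold higher (5376 in old, 831 in young mice). Whether these genes bear on the Hox differences was not tested.

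Polycomb complexes keep Hox genes silent, and Trithorax proteins keep them active. Of 10 genes of Polycomb complex 2, 1 was higher in old and 2 in young mice (median -0.05). Ezh2, its methyltransferase, had 334 in old and 1135 in young mice, 3.40-fold higher in young mice, and the accessory genes Mtf2 (2.45-fold toward the young) and Phf1 (2.58-fold toward the old) differed in opposite directions. Of 15 genes of Polycomb complex 1, 2 were higher on each array (median -0.41). Pcgf5 (2.01-fold toward the old) and Pcgf6 (2.01-fold toward the young) lay on the 2-fold threshold, and the call of Pcgf5 rests on the scaling. The reader gene Cbx7 was at least 5.68-fold higher in old mice and Cbx6 2.41-fold higher in young mice. Of 11 Trithorax and demethylase genes, 1 was higher in old mice and 0 in young mice (median 0.07), the demethylase gene Kdm6b with 1619 in old and 809 in young mice. It lay on the 2-fold threshold, and its call rests on the scaling, since the median log2 ratio of the deposited values was -0.13. Kmt2a, the methyltransferase best known for holding Hox genes active, had 740 in old and 626 in young mice. Beside these lists, 16.0% of all genes above the floor were higher in old and 11.3% in young mice.

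Markers of other cell types also differed between the arrays, some lists toward the old and some toward the young. For the lists that follow, the shares over all genes above the floor were 16.0% higher in old and 11.3% in young mice. Of 7 measured lymphatic markers, 5 were above the floor in old mice and 7 in young mice, 0 were higher in old and 5 in young mice (median log2 ratio -5.23). Their summed signal was 35086 in old and 64662 in young mice. Prox1 had 60.6 in old and 6885 in young mice and Nts 27.2 in old and 10414 in young mice. Both were thus below the floor where Hoxd8, Hoxd9 and Hoxd10 were. The other 5 were above it on both arrays, although Mmrn1 barely passed it in old mice. Mmrn1 had 74.6 in old and 10039 in young mice, and Reln 107 in old and 4023 in young mice. Prox1, Nts, Mmrn1 and Reln, 4 of the 7, were 32-fold or more higher in young mice, against 0.207% of the 12105 genes above the floor. Lyve1 and Flt4, also lymphatic markers, were within 2-fold. The part of lymphatic cells in the HoxD signal was not tested.

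On the side of Hoxa5 and Hoxb5 lay liver sinusoidal endothelial markers, 10 of 10 of them higher in old mice (median 5.70), with a summed signal of 192131 in old and 3581 in young mice. Fibroblast markers were higher in old mice for 7 of 8 above the floor (median 3.47, summed signal 23141 in old and 386 in young mice), although Tcf21 and Pdgfra, markers of lung fibroblasts, were below the floor on both. Mesothelial markers were higher for 6 of 7 (median 4.63, sums 13899 in old and 2002 in young mice), hepatocyte markers for 9 of 9 (median 3.59, sums 16366 in old and 474 in young mice) and pericyte and smooth muscle markers for 7 of 9 (median 1.93, sums 24538 in old and 471 in young mice). Pan-leukocyte markers were higher for 7 of 8 (median 3.88, sums 14235 in old and 1798 in young mice). Of 6 blood progenitor and mast cell markers above the floor, relevant to Meis1 and Hoxb4, 3 were higher in old and 2 in young mice (median 1.10, sums 11421 in old and 6881 in young mice). Kit held most of the old sum (7595 in old, 50.8 in young mice) and Cd34 most of the young sum (954 in old, 5540 in young mice). Flt3 and Myb were below the floor on both. The part of these cells in the higher HoxA, HoxB and Meis signals was not tested.

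Transcription factors that mark organs other than by the Hox code were compared in the same way. Of 7 lung factors, 3 were above the floor and 1 was higher in old mice, Tbx2 at 13.9-fold (median of the 3, -0.12). Nkx2-1, the lung epithelial factor, and Tbx3, Tbx4 and Tbx5 did not reach the floor on either array, and Foxf1 had 101 in old and 152 in young mice. Of 10 factors of liver, gut and spleen, 4 were above the floor and 2 were higher in old mice (median 0.77). Gata4, a factor of liver sinusoidal endothelium, had 3834 in old and 68.6 in young mice, at least 52.0-fold higher in old mice. Hhex, also used in liver and endothelium, had 2008 in old and 3144 in young mice. Lung capillary markers were split, with 2 of 7 above the floor higher in old mice and 1 in young mice (median -0.12, sums 52919 in old and 22449 in young mice). Lung epithelial markers had 3 of 6 higher in old and 1 in young mice (median 1.38, sums 5602 in old and 484 in young mice). Most of the old sum came from Krt18 (2605 in old, 18.2 in young mice) and Krt8 (2268 in old, 36.5 in young mice). Cdh1 was also higher in old mice, Ager was 2.08-fold higher in young mice, and Sftpc and Nkx2-1 were below the floor on both arrays.

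**Figure D4:**
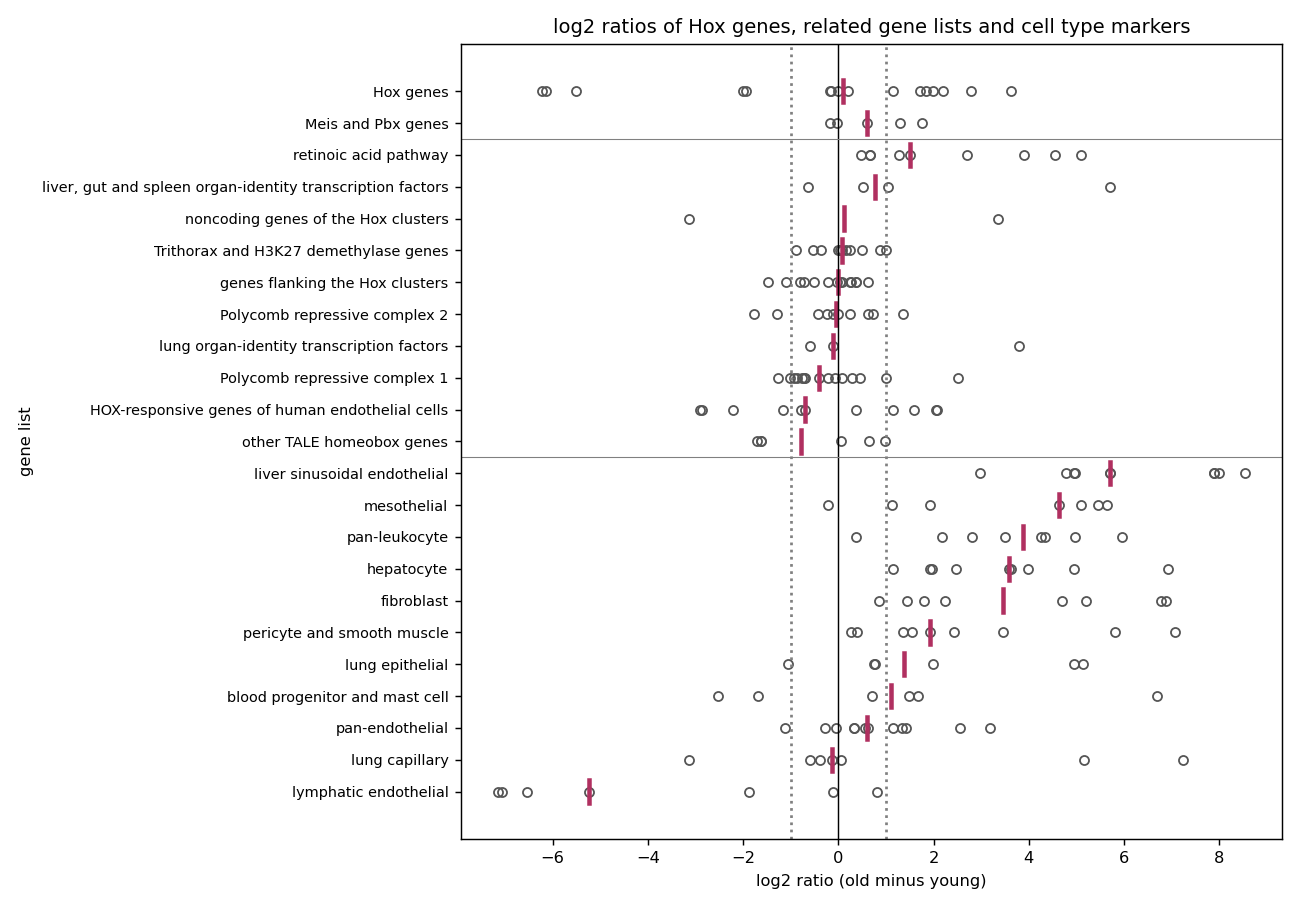
Log2 ratios (old minus young) of genes above the floor on at least 1 array, as circles, with the median of each list as a red bar and dotted lines at 2-fold, for Hox and partner genes (top), related gene lists (middle) and cell type markers (bottom). Hox genes spread from -6.23 to 3.63 around a median of 0.10, genes flanking the clusters stay between -1.48 and 0.62, and lymphatic markers have a median of -5.23.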

How the data were processed

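RNA was measured on 2 one-colour arrays, 1 per age, with biotin-labelled cRNA made from oligo-dT primed cDNA, per the labels' protocols. The deposited intensity values, linear and 1 per probe set, were made with GCOS 1.4 and MAS5 per the submitters' processing notes, and the 2% trimmed mean of each array was 500.003. Of 45101 probe sets, 64 controls were left out. Names came from the platform annotation (34958 probe sets with 1 symbol, 932 with several, 9211 with none), and all 39 members matched RefSeq (GRCm38.p6) by Entrez identifier with 0 symbols changed. The deposited median log2 ratio was -0.13, and signals were multiplied by 1.05 (old) and 0.956 (young). The floor was the higher of the medians of the scaled arrays. A gene was read by its brightest probe set on average. No test was possible, and the number of arrays limits the precision. The SD between probe sets used 4514 genes.

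The members and the 22 lists (214 of 231 genes found) were chosen with earlier results of these data known. Every member that reached the floor was named, with up to 4 genes of each list by size of ratio and its defining genes. In some lists the genes with the largest ratios were not named. Tcf21, Pdgfra, Flt3, Myb, Tbx3, Tbx4 and Tbx5 have no ratio and were named outside that rule, as genes below the floor. Pknox1, Lnpk, Atp5mc3, Kmt2a, Hhex, Foxf1, Emcn, Sftpc, Car4, Lyve1 and Flt4 were chosen after their values were seen, as were the motifs. Promoters are from RefSeq. The procedure was tested on simulated data. Python 3.11.15, numpy 2.4.6, pandas 2.3.3, statsmodels 0.14.6 and matplotlib 3.10.9 were used.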

Additional observations from a re-analysis of the deposited data

How the results depend on the processing

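Scaling was varied by using the deposited signals, by matching trimmed means, by quantile normalization and by loess (span 0.4). Other alternatives were floors at the 25 and 75 percentiles (20.3 and 489 signal units), the mean over probe sets, leaving out probe sets of shared sequence, and an offset of 0.5 of the floor. No called ratio of a member turned its sign where it could be read. Of 178 ratios, 170 kept their side of 2-fold and, where under it, moved by less than the probe-set SD. The 178 leave out genes that fell below the floor on both arrays in a setting, which have no ratio there. Among the called genes these were Hoxa2, Hoxa3, Hoxa4, Hoxa7 and Hoxd3 with the floor at the 75 percentile. With the floor at the 25 percentile, 24 Hox genes were above it, 7 higher in old and 5 in young mice, and with the mean over probe sets 14 were above the floor, 5 higher in old and 5 in young mice. With the floor at the 75 percentile, 8 Hox genes were above it, 3 higher in old and 3 in young mice, and 1 Meis gene was higher in old mice. Meis and Pbx genes higher in old mice were 4 with the lower floor and 1 with the mean over probe sets. As a mean over probe sets Hoxb4 was under 2-fold (0.60). Hoxb4 and Meis1 with the higher floor (0.50 and 0.13), and Meis1 and Hoxa3 as means (0.56 and 0.37), had only lower bounds, too small to call. Meis3 was 1.48 with the lower floor. The lower bounds follow the floor by construction, and ran from -3.50 to -7.17 for Hoxd8, from -3.42 to -8.01 for Hoxd9 and from -2.78 to -7.36 for Hoxd10. The sign of the small Hox median depended on scaling (-0.03 on the values as deposited, 0.15 with loess). No paired analysis was possible because each group had 1 array.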

Other observations

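Genes reported to respond to HOX proteins in human endothelial cells split between the arrays. Of 11 measured, 4 were higher in old and 4 in young mice, with a median log2 ratio of -0.70. Among all genes above the floor, 16.0% were higher in old and 11.3% in young mice. The integrin gene Itgb3 (318 in old, 2333 in young mice) and the plasminogen activator gene Plau (308 in old, 2311 in young mice) were 7.33-fold and 7.50-fold higher in young mice. Whether any Hox gene bears on these genes was not tested. Angpt2, a ligand of the Tie receptor system, had 829 in old and 3844 in young mice, 4.64-fold higher in young mice. The membrane protease gene Mmp14 had 10991 in old and 2622 in young mice, 4.19-fold higher in old mice.

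The homeobox genes nearest in kind to the Hox clusters were not seen. All 8 ParaHox and Evx genes, among them the gut factor genes Cdx1 and Cdx2 and Evx2 beside Hoxd13, were below the floor on both arrays, as was the antisense gene Hoxa11os.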
